A study of Mus musculus with 6 samples.

Results

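The translation initiation and elongation factors of mouse 3T3-F442A cells were compared between 3 WT libraries and 3 SWELL1 KO libraries. Factor rows were those of the deposited expression table whose gene name begins with Eif1 to Eif6, Eef1 or Eef2. The Eif2ak kinases and names marked as pseudogenes or related sequences were left out. This gave 52 of 31097 rows. 3T3-F442A is a mouse preadipocyte line that can be turned into fat cells in culture, and the labels call it an adipocyte line. The WT group is the parental line with an intact SWELL1 gene. The SWELL1 KO group is the same line after CRISPR/Cas9 targeting of SWELL1, officially named Lrrc8a, which encodes part of an anion channel that opens when cells swell. Both groups were grown in RPMI with 10% FBS, and RNA was isolated with TRIZOL. The labels leave unsaid how many clones gave the KO libraries and whether any differentiation step was used. The KO sample names carry the mark D3, which the WT names lack and no label explains, so genotype, clone and that mark cannot be told apart.

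Translation of most messenger RNAs starts when the eIF4F complex binds the 5′ cap and the small ribosomal subunit, carrying eIF1, eIF1A, eIF3 and the initiator tRNA held by eIF2, scans to a start codon. eIF2 has to be recharged with GTP by eIF2B, and phosphorylation of its alpha subunit by the eIF2 kinases blocks that step, which is the core of the integrated stress response. eIF5B then joins the large subunit, eEF1A brings each further tRNA to the ribosome, and eEF2 moves the ribosome along. The 4E-binding proteins keep the cap-binding protein eIF4E out of eIF4F until mTORC1 phosphorylates them, which ties cap-dependent translation to insulin and nutrients in fat cells and elsewhere.

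The unit of the table, inferred here, is FPKM, the fragments on each kilobase of a transcript relative to all those mapped, which allows levels of different genes to be compared per length. Estimated depth ran from 17.2 to 20.9 M fragments in WT and from 18.4 to 26.0 M in KO. The row that names Lrrc8a also holds Nup188 and Phyhd1, gave 32.5, 35.0 and 33.2 FPKM in WT and 28.8, 28.0 and 27.3 in KO, and so is no check of the knockout. All 8 fibroblast and preadipocyte markers reached 1 FPKM, and their summed level was 6739 to 7581 FPKM in WT and 6160 to 6216 in KO, with all KO libraries below WT for 5 (Col1a1, Col1a2, Pdgfra, Thy1 and Dlk1) and above WT for 3 (Col3a1, Pdgfrb and Vim). Of 11 adipocyte markers 9 had a row and 5 of them reached 1 FPKM, with sums of 143.5 to 203.0 FPKM in WT and 9.03 to 10.4 in KO and with Lep listed at 0 in every library. Fabp4 alone gave 132.7 to 188.2 FPKM of the WT sums, and without it the sums were 10.8 to 14.8 FPKM in WT and 5.90 to 6.95 in KO. Most of that KO remainder was Lipe, which overlapped between the groups (6.17 to 7.63 FPKM in WT, 5.64 to 6.70 in KO). The rows other than Fabp4, Lipe and Lep were at most 0.18 FPKM in KO, each below its WT values. None of the macrophage, endothelial and epithelial markers reached 1 FPKM in any library. The row AC166252.2 took 16.7% to 23.7% of the FPKM sum in KO and 0% to 2.10% in WT, and the part of that row, or of the difference in adipocyte markers, in the results below was not tested. These are bulk samples, in which fewer cells of a type and less RNA per cell cannot be told apart.

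The factors moved in both directions, and no complex moved as a whole. Rows averaging at least 0.5 FPKM were tested with limma on log2(FPKM + 0.5), with p-values adjusted by Benjamini-Hochberg over all 10515 tested rows and a threshold of 0.05, and all log2 fold changes below are KO minus WT on that scale. Of the 52 factor rows 47 were tested, and 31 were called. Across all tested rows 65.2% were called, so the factors were called at about the background share. Of the 47 tested factor rows 12 were called higher in KO, against a background of 28.5% of tested rows, and 19 lower, against 36.7%. Group values did not overlap in 34 factor rows, against 71.8% of tested rows. KO was on top in 13 of these and WT in 21, where the backgrounds were 31.5% and 40.3%. The median log2 fold change was -0.04 over the 47 factor rows and -0.07 over all tested rows. Scaling moved that split. Called rows that were higher made up 38.7% as deposited, 60.6% (20 higher, 13 lower) under quantile normalization and 55.2% (16 higher, 13 lower) after rescaling to a common sum without AC166252.2. Over all called rows of the table the same share was 43.7%, 50.4% and 53.3%, so it moved there too. Between these settings the median of all tested rows went from -0.07 to -0.00 and 0.04 and that of the factor rows from -0.04 to 0.12 and 0.08.

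**Figure D1:**
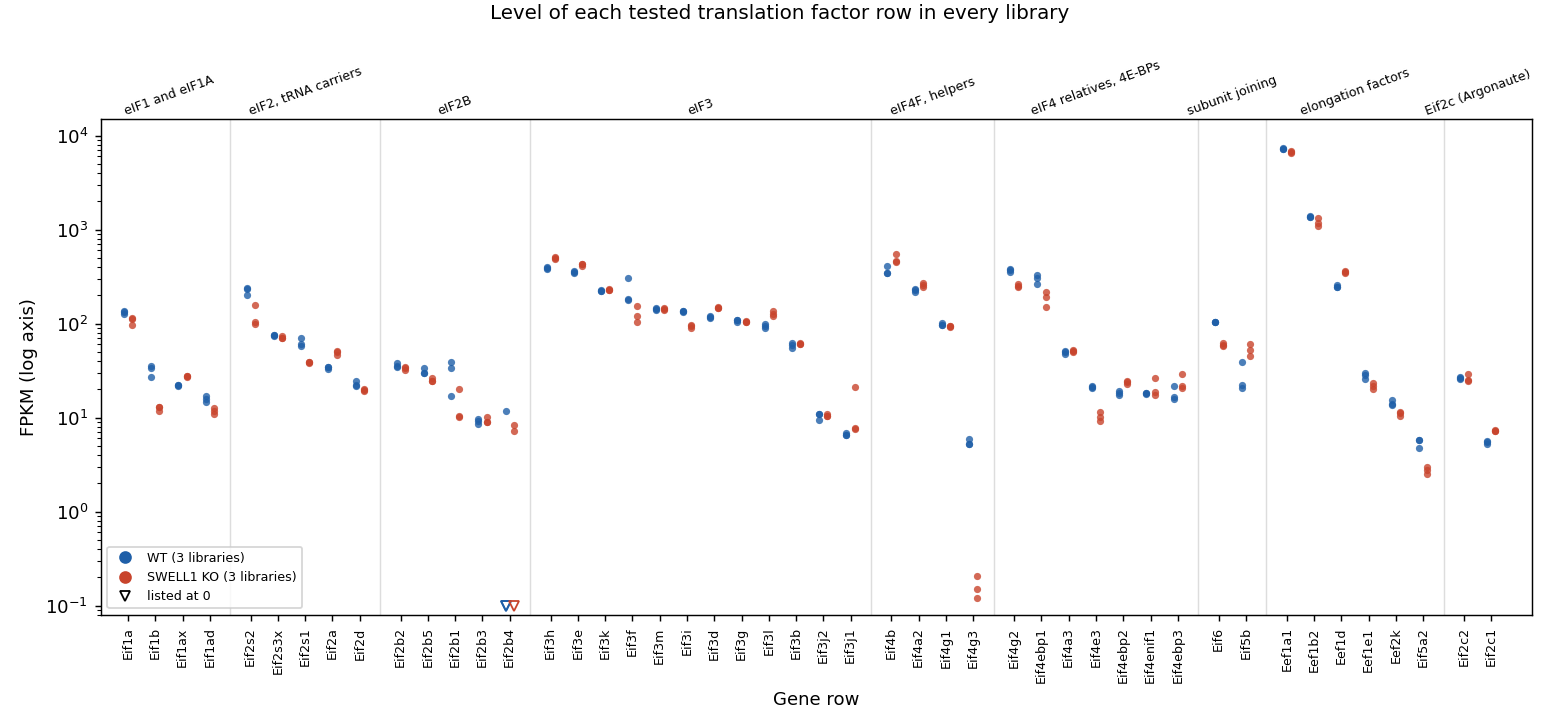
FPKM of the 47 tested factor rows in each of the 6 libraries on a log axis, grouped by complex (circles: WT blue, SWELL1 KO red; open triangles mark libraries listed at 0, drawn at the foot of the axis). Eef1a1 lies at 6571 FPKM or above in every library, and Eif4g3 is the tested row with the widest gap between the groups.

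Of the 31 called rows, 21 kept their call and direction in all 15 alternative fits, 9 of the 12 that were higher and 12 of the 19 that were lower. Among the called factor rows, 3 had a fitted change of at least 2-fold, Eif4g3, Eif1b and the row of Eif4e3, all lower in KO, while 9.51% of all tested rows were called and lower by that much. No called factor row was higher by that much, against 7.52% of all tested rows. Eif2b1 (-1.09) and Eif2b4 (1.17) had fitted log2 fold changes of that size but were not called, and Eif2b4 was listed at 0 in 3 libraries. The other 28 called factor rows therefore changed less than 2-fold. A change under 1.5-fold was fitted for 21 of the 31, against 3185 of the 6860 called rows of the whole table. Several well-known factors, among them Eif1, Eif3a, Eif3c, Eif4a1, Eif4e, Eif4h, Eif5, Eif5a, Eef1g and Eef2, were not analysed here.

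Promoters were read from RefSeq (GRCm38.p6), 250 bases before to 50 bases after each annotated start, for 38 of the 52 factor rows. A messenger RNA that starts with a C followed by a run of pyrimidines, a 5′ TOP-like start, can be held back from translation by LARP1 when mTORC1 is off, so start windows (10 bases before and 20 from the start) were searched for a C at the annotated start and at least 5 pyrimidines in a row. The windows of Eif3f and Eif2s3x are shown because, of the tested factor genes with a promoter entry, only these had such a start, with the run in capitals.
Eif3f: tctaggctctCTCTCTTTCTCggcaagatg
Eif2s3x: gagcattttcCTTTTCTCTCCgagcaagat
The Eif3f window is chr7:108934405-108934434 on the plus strand and that of Eif2s3x chrX:94212632-94212661 on the minus strand. Eif2c5, which is listed at 0 in every library, also had one, so 3 of 38 factor genes (7.89%) did, against 3.01% of 27025 genes with a promoter. This search depends on the exact base of each annotated start. The annotated base was T for Eef1a1 and G for Eef1b2, so neither was counted. Whether the annotated starts are those used in these cells was not tested, and factor rows without a promoter entry were not searched.

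The letters CACGTG, the E-box to which MYC, USF and TFEB family proteins can bind, were searched on both strands, which hold the same letters since the motif reads the same on each. They occurred in the promoters of 6 of 38 factor genes (15.8%) and of 8.09% of all genes. They were found in 4 of 13 factor genes that were lower in KO, in 0 of 9 that were higher and in 2 of 12 that were not called. The windows of the 4 lower genes are shown with the E-box in capitals and 10 bases on each side, one window per gene.
Eif1b: tgcggacggtCACGTGgcggcggcgc
Eif3f: agatatgattCACGTGgtataaattt
Eif5a2: gggcgagcttCACGTGacggggcggg
Eef2k: cggggacggcCACGTGagcccgggcg
These lie at chr9:120492572-120492597 (Eif1b), chr7:108934337-108934362 (Eif3f), chr3:28781150-28781175 (Eif5a2) and chr7:120842790-120842815 (Eef2k), all on the plus strand of the genome, and Eif5a2 has another E-box further upstream. The E-box begins 24, 68, 117 and 31 bases before the annotated start of Eif1b, Eif3f, Eif5a2 and Eef2k. Eef2k has 3 annotated starts, and this E-box lies before the start at 120842831. Eif3k and Eif4g1 were the uncalled factor genes with the letters. TGATGNAA, the core bound by ATF4 with a C/EBP partner, was searched on both strands and was present in 2 of 38 factor genes (Eef2k and Eif2s3x; 5.26%) and in 4.51% of all genes. The match in Eef2k lies before its start at 120851189, apart from the start with the E-box. The 38 factor genes had 45 promoter entries, so genes with several starts had more sequence searched. These counts are descriptions of letters in a window and were not tested.

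eIF1 and eIF1A help the scanning ribosome tell a start codon from other codons. All 4 tested rows of this group were called, 3 lower and 1 higher. Eif1b (chromosome 9, 120492232 to 120495330, GRCm38), a close relative of eIF1 and a gene with an E-box, had 35.0, 27.0 and 33.9 FPKM in WT and 13.0, 12.9 and 11.7 in KO. The lowest WT library was more than 2 times the highest KO library, and the fall was 2.55-fold (log2 fold change -1.31, SE 0.11, adjusted p = 0.000149). The 2 genes for eIF1A moved apart. Eif1a (chromosome 18) had 127, 135 and 132 FPKM in WT and 115, 96.6 and 113 in KO (log2 fold change -0.29, SE 0.07, adjusted p = 0.0144), a call lost under quantile normalization (adjusted p = 0.422) and common-sum scaling (adjusted p = 0.156). Eif1ax, on the X chromosome, rose from 22.2, 21.9 and 22.3 FPKM to 27.4, 27.9 and 27.1 (log2 fold change 0.31, SE 0.03, adjusted p = 0.000486). Within a library Eif1a was therefore 5.75 to 6.19 times Eif1ax in WT and 3.47 to 4.19 times in KO. This and the other ratios between factor rows were chosen after the values had been seen and carry no test. Eif1ad, a related protein of which less is known, fell from a mean of 15.8 ± 1.04 (SD, n = 3) to 11.8 ± 0.79 FPKM (adjusted p = 0.0037).

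The 3 subunits of eIF2, which together carry initiator tRNA to the small subunit, did not share 1 pattern. Eif2s1, the alpha subunit that the stress kinases phosphorylate (chromosome 12, 78861819 to 78887010), had 61.1, 57.2 and 69.8 FPKM in WT and 38.2, 38.8 and 38.8 in KO, a 1.62-fold fall (log2 fold change -0.69, SE 0.08, adjusted p = 0.000455). Eif2s2, the beta subunit (chromosome 2), had 201, 237 and 230 FPKM in WT and 99.5, 156 and 104 in KO, a 1.86-fold fall (log2 fold change -0.92, SE 0.18, adjusted p = 0.00568). KO replicate 2 was the highest of its group, and the groups still did not overlap. Eif2s3x, the X-linked gamma subunit that binds GTP and has the TOP-like start shown above, had 76.1, 74.0 and 76.3 FPKM in WT and 73.6, 69.7 and 70.5 in KO. All 3 KO libraries were below all 3 WT libraries, but the difference did not pass the threshold (log2 fold change -0.08, SE 0.04, adjusted p = 0.0900). The ratio of Eif2s1 to Eif2s3x was 0.80, 0.77 and 0.91 in WT and 0.52, 0.56 and 0.55 in KO, with no overlap. Eif2s3y, the Y-linked copy, was listed at 0 in all 6 libraries.

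The 2 other carriers of initiator tRNA also moved apart. Eif2a, which can deliver the tRNA without eIF2 (chromosome 3, 58525821 to 58557501), had 33.1, 34.1 and 34.8 FPKM in WT and 49.6, 50.7 and 46.2 in KO. All KO libraries were higher, by 1.43-fold in the means (log2 fold change 0.51, SE 0.05, adjusted p = 0.000228). Eif2d had a mean of 22.7 ± 1.51 FPKM in WT and 19.8 ± 0.48 in KO (log2 fold change -0.19, adjusted p = 0.0274), a call lost in 6 of 15 alternative fits, among them those without KO replicate 2 (adjusted p = 0.0709) or 3 (adjusted p = 0.0767).

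Of the 5 subunits of eIF2B, which exchanges the nucleotide on eIF2, only Eif2b5 was called. Eif2b5, the catalytic epsilon subunit (chromosome 16), had 34.0, 29.5 and 30.1 FPKM in WT and 26.1, 24.3 and 24.7 in KO (log2 fold change -0.31, SE 0.07, adjusted p = 0.00743). That call was lost under quantile normalization (adjusted p = 0.0669) and common-sum scaling (adjusted p = 0.0893). Eif2b1 had 33.7, 16.8 and 39.0 FPKM in WT and 10.4, 20.3 and 10.1 in KO. Replicate 2 was the lowest of the WT libraries and the highest of the KO libraries, so the groups overlapped (log2 fold change -1.09, SE 0.40, adjusted p = 0.0563). Without WT replicate 2 the adjusted p was 0.0170, and without KO replicate 2 it was 0.0288. Eif2b2, the row of this complex with the highest mean, was at 36.0 ± 1.75 and 33.4 ± 1.07 FPKM (adjusted p = 0.109), and Eif2b3 at 9.11 ± 0.50 and 9.33 ± 0.62 (adjusted p = 0.701). For Eif2b4 the table lists 0, 11.6 and 0 FPKM in WT libraries against 7.21, 8.40 and 0 in KO, and no fold change is given. A 0 beside 11.6 FPKM in the same group may be a failed estimate, so these values say little about Eif2b4.

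eIF3 is the large scaffold on the small subunit, and its rows divided into subunits that rose, fell or were not called. Of 12 tested rows, 4 were higher (Eif3d, Eif3e, Eif3h and Eif3l), 2 were lower (Eif3f and Eif3i) and 6 were not called; under quantile normalization 8 were higher and 1 lower. Eif3h, the row of the complex with the highest mean (chromosome 15, 51786558 to 51865523), had 399, 382 and 388 FPKM in WT and 494, 509 and 487 in KO (log2 fold change 0.35, SE 0.03, adjusted p = 0.000236). Eif3l (chromosome 15) showed the largest called increase of the complex, from 93.9, 90.5 and 97.9 FPKM to 127, 135 and 119 (log2 fold change 0.43, SE 0.06, adjusted p = 0.00103). Eif3d, which can bind the cap itself, and Eif3e had log2 fold changes of 0.34 and 0.27 with adjusted p of 0.000283 and 0.000858, and in both all KO libraries were above all WT libraries.

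Eif3i, a subunit next to Eif3b and Eif3g in the complex, had 135, 134 and 136 FPKM in WT and 95.7, 94.9 and 90.7 in KO (log2 fold change -0.52, SE 0.03, adjusted p = 5.55e-05). Eif3f, the gene with both a TOP-like start and an E-box, had 183, 307 and 179 FPKM in WT and 121, 154 and 104 in KO (log2 fold change -0.79, SE 0.25, adjusted p = 0.0342). The second library was the highest in both groups, the groups did not overlap, and the call was lost without KO replicate 1 (adjusted p = 0.0896), without KO replicate 3 (adjusted p = 0.103) and in 2 further fits. Eif3b, Eif3g, Eif3j2, Eif3k and Eif3m were not called, with log2 fold changes from -0.04 to 0.07 and adjusted p from 0.329 to 0.801. Eif3j1 had 6.47, 6.55 and 6.79 FPKM in WT and 7.64, 7.81 and 20.9 in KO, so 1 KO library stood far above the rest (adjusted p = 0.173, and 0.0215 without KO replicate 3). Eif3j1 and Eif3j2 are near-identical copies, and reads could be split between them. The subunits thus stood in other proportions in the 2 groups: Eif3h was 2.97, 2.85 and 2.84 times Eif3i in WT and 5.16, 5.37 and 5.38 times in KO.

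**Figure D2:**
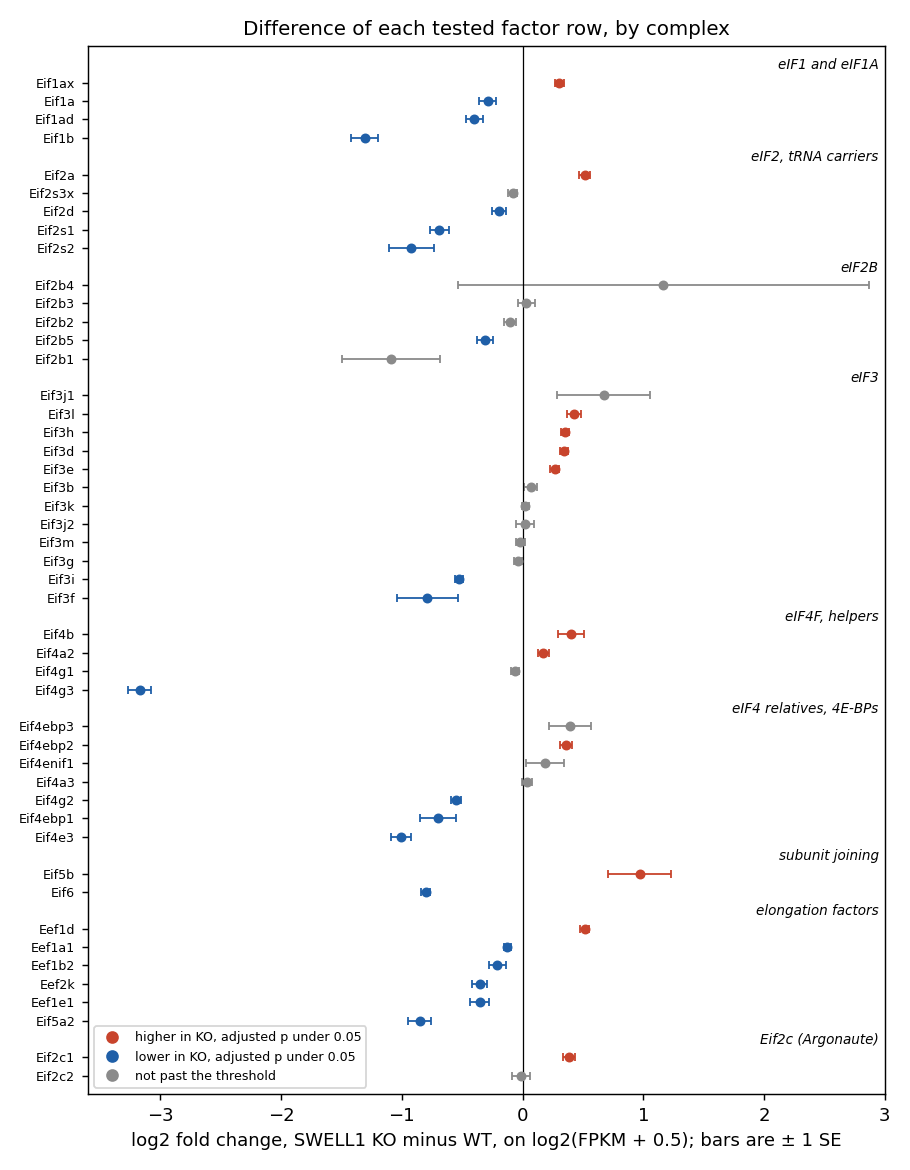
Log2 fold change (SWELL1 KO minus WT, on log2(FPKM + 0.5)) of the 47 tested factor rows with ± 1 SE from limma, grouped by complex and coloured by whether the adjusted p was under 0.05. Most rows lie within 1 log2 unit of 0, Eif4g3 stands at -3.17, and Eif2b4, listed at 0 in 3 libraries, has the widest error.

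eIF4F joins the cap to the small subunit through eIF4G, with eIF4A as its helicase. The largest difference of all factor rows was that of Eif4g3, which encodes eIF4GII, the less abundant of the classical eIF4G scaffolds here. Eif4g3 (chromosome 4, 137993022 to 138208508, plus strand) had 5.18, 5.88 and 5.25 FPKM in WT and 0.122, 0.206 and 0.149 in KO, a 34.2-fold fall in the means. On the tested scale, which understates changes of low values, the log2 fold change was -3.17 (SE 0.10, adjusted p = 5.71e-06), and it ran from -4.43 to -2.47 over the 15 alternative fits, called in each. With its longest annotated transcript of 8.13 kb, these levels stand for about 724 to 914 fragments in the WT libraries and 18.9 to 43.5 in the KO libraries, so the KO signal was low but above 0. Eif4g1, its paralog (chromosome 16), had 95.5, 101 and 97.0 FPKM in WT and 92.3, 93.6 and 95.2 in KO (log2 fold change -0.06, SE 0.04, adjusted p = 0.171). Eif4g3 made up 5.14%, 5.51% and 5.13% of the summed FPKM of the pair in WT and 0.13%, 0.22% and 0.16% in KO.

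The nearest protein-coding genes to Eif4g3 on chromosome 4 that had a row here went in both directions. Genes without a row under their annotated name were passed over. Ece1, the nearest of those with a row upstream, fell from 11.8, 11.3 and 11.5 FPKM to 7.80, 7.88 and 8.41 (log2 fold change -0.50, adjusted p = 0.0003). Ddost, downstream, had a log2 fold change of -0.94 (adjusted p = 0.000103) and Usp48, upstream, of -0.65 (adjusted p = 0.000547). Rap1gap, upstream, rose with a log2 fold change of 1.18 (adjusted p = 0.00157), and Pink1, downstream, did not pass the threshold (0.17, adjusted p = 0.105), though it did, as higher in KO, without WT replicate 1 (adjusted p = 0.0317) and under median-ratio (adjusted p = 0.0449), quantile (adjusted p = 0.0223) and common-sum scaling (adjusted p = 0.0310). Other neighbours were too low to be tested. Alpl, upstream, had 1.25, 0.256 and 0.257 FPKM in WT and 0.0422, 0 and 0.0220 in KO, all below WT. The row of Sh2d5 and Kif17, the nearest with a row downstream, had 0.538, 0.547 and 0.517 FPKM in WT and 0.146, 0.154 and 0.510 in KO. These neighbours were looked at after the value of Eif4g3 had been seen.

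Eif4b, a helper of eIF4F, and Eif4a2, which encodes a form of its helicase, rose, though with less margin. Eif4b, which stimulates the helicase (chromosome 15, 102073773 to 102097173), had 344, 410 and 345 FPKM in WT and 458, 552 and 447 in KO. Replicate 2 was the highest in both groups, and all KO libraries were above all WT libraries (log2 fold change 0.40, SE 0.11, adjusted p = 0.0187). It did not pass without WT replicate 1 (adjusted p = 0.0635) and without WT replicate 3 (adjusted p = 0.0639). Eif4a2, a helicase paralog whose row also holds small nucleolar RNAs, had 234, 219 and 228 FPKM in WT and 244, 267 and 257 in KO (log2 fold change 0.17, SE 0.05, adjusted p = 0.0184), and lost its call without WT replicate 2 (adjusted p = 0.0558), KO replicate 2 (adjusted p = 0.0514) or KO replicate 3 (adjusted p = 0.0504) and with a replicate block (adjusted p = 0.0620).

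The 4E-binding proteins changed in opposite directions. Eif4ebp1, the main 4E-binding protein of fat tissue (chromosome 8, 27260329 to 27276674), had 328, 265 and 303 FPKM in WT and 149, 193 and 214 in KO, a 1.61-fold fall (log2 fold change -0.70, SE 0.15, adjusted p = 0.00774). Eif4ebp2 (chromosome 10, 61428491 to 61452661) had 19.0, 17.4 and 18.4 FPKM in WT and 22.6, 24.2 and 23.9 in KO, a 1.29-fold rise (log2 fold change 0.36, SE 0.05, adjusted p = 0.0014). The groups did not overlap for either gene. Eif4ebp1 stayed the more abundant of the pair, at 17.3, 15.3 and 16.5 times Eif4ebp2 in WT and 6.60, 7.95 and 8.94 times in KO. The row that names Eif4ebp3 also holds Ankhd1, and its values of 17.9 ± 3.09 and 23.7 ± 4.76 FPKM cannot be given to either gene (adjusted p = 0.0947).

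**Figure D3:**
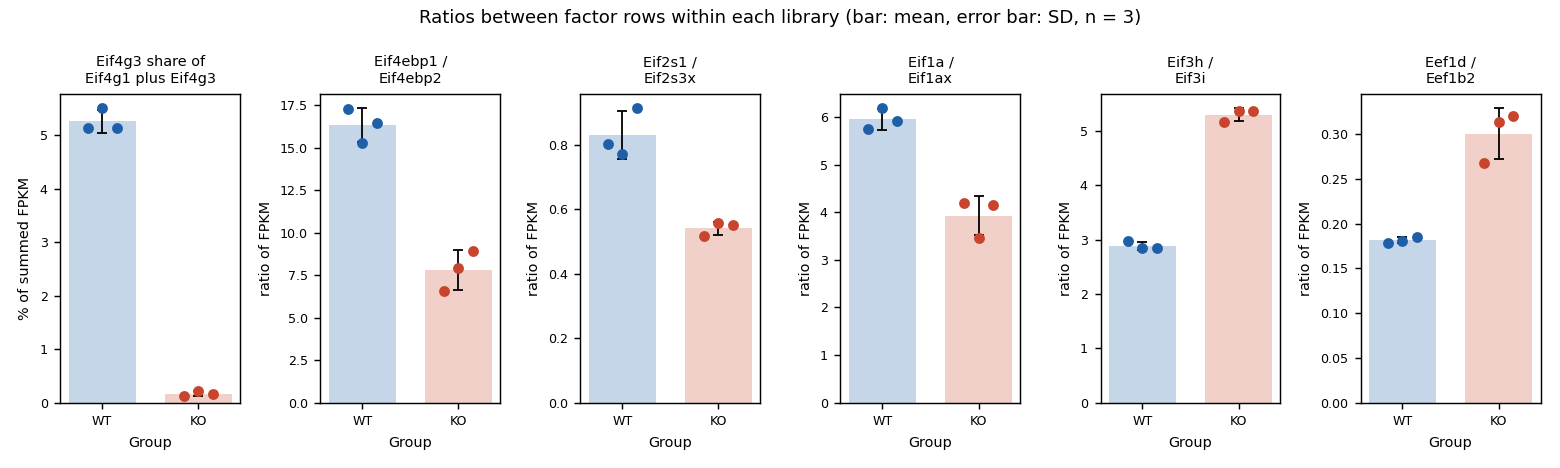
Ratios of FPKM between pairs of factor rows within each library (for Eif4g3, its percentage of the summed FPKM of Eif4g1 and Eif4g3), with bars for the mean and error bars for the SD of 3 libraries. The pairs were chosen after the values had been seen, and in all 6 panels the WT and SWELL1 KO points do not overlap. The ratio of Eef1a1 to Eef1b2, not drawn, does overlap (5.25 to 5.36 in WT, 5.01 to 6.02 in KO). The Eif4g3 share drops from above 5% to below 0.3%.

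Among the relatives of eIF4 factors, Eif4g2 had the highest mean. Eif4g2, which lacks the part that binds eIF4E and serves cap-independent initiation, had 383, 369 and 355 FPKM in WT and 243, 251 and 260 in KO (log2 fold change -0.55, SE 0.04, adjusted p = 0.000119). The row of Eif4e3, an eIF4E relative, had 20.6, 21.1 and 21.7 FPKM in WT and 11.4, 10.3 and 9.20 in KO (log2 fold change -1.01, SE 0.08, adjusted p = 0.000126). That row also holds Foxp1, a transcription factor gene, so the fall cannot be assigned to Eif4e3. Eif4a3, a core protein of the exon junction complex, was at 49.5 ± 1.60 and 50.8 ± 0.98 FPKM (adjusted p = 0.422), and Eif4enif1, which shuttles eIF4E into the nucleus, at 18.0 ± 0.35 and 21.0 ± 4.96 (adjusted p = 0.332). Eif4e1b, known from oocytes, stayed under 0.2 FPKM in every library and was not tested.

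The factors of subunit joining gave 1 fall and 1 rise. Eif6, which keeps the large subunit from joining too early and is known to affect lipid synthesis in mouse liver and fat (chromosome 2, 155819832 to 155826925), had 104, 103 and 104 FPKM in WT and 57.4, 61.6 and 58.9 in KO. The libraries of each group lay close together, and the fall was 1.75-fold (log2 fold change -0.80, SE 0.04, adjusted p = 1.76e-05). Eif5b, the GTPase that joins the subunits (chromosome 1), had 20.8, 22.4 and 39.4 FPKM in WT and 44.8, 52.8 and 60.1 in KO (log2 fold change 0.97, SE 0.26, adjusted p = 0.0184). Its groups did not overlap, but WT replicate 3 lay nearer to the KO libraries than to the other WT libraries. The call was lost without WT replicate 1 (adjusted p = 0.0569) or 2 (adjusted p = 0.0613) and without KO replicate 2 (adjusted p = 0.0547) or 3 (adjusted p = 0.0622), with log2 fold changes of 0.80 to 0.96.

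All 6 tested elongation rows were called, 5 lower and 1 higher, though under quantile, median-ratio and common-sum scaling 3, 3 and 2 were called lower. Eef1a1, which delivers aminoacyl-tRNA, was by far the most abundant factor, with 7240, 7183 and 7418 FPKM in WT and 6630, 6796 and 6571 in KO. The difference was 1.09-fold (log2 fold change -0.13, SE 0.03, adjusted p = 0.00978), and its size and call rested on the scaling. The log2 fold change of Eef1a1 was -0.06 under median-ratio scaling (adjusted p = 0.143) and -0.0058 under common-sum scaling (adjusted p = 0.909). Under quantile normalization it was -1.40 (SE 0.66, adjusted p = 0.110). That method sets values by rank, and AC166252.2 took 16.7% to 23.7% of the FPKM sum in KO and 0% to 2.10% in WT. The -1.40 is not read here as the size of the fall, and the part of AC166252.2 in it was not tested. The call was also lost without WT replicate 3 (adjusted p = 0.0597) and with no filter on low values (adjusted p = 0.289). Its paralog Eef1a2, the form of muscle and neurons, was listed at 0 in all 6 libraries. The exchange factors that recharge eEF1A moved apart. Eef1b2, which had 1371, 1369 and 1383 FPKM in WT and 1322, 1168 and 1091 in KO, was near the threshold (log2 fold change -0.21, SE 0.07, adjusted p = 0.0443), lost its call in 10 of 15 fits and changed sign under quantile normalization (0.03). Those 10 included 5 of the 6 fits that left out 1 library, with adjusted p of 0.0933 to 0.116, and the exception was the fit without KO replicate 1.

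Eef1d, the delta subunit of the same exchange complex (chromosome 15, 75894205 to 75909556), had 245, 248 and 256 FPKM in WT and 354, 366 and 349 in KO (log2 fold change 0.51, SE 0.03, adjusted p = 5.97e-05). It was called in all 15 fits, and its ratio to Eef1b2 was 0.18, 0.18 and 0.19 in WT and 0.27, 0.31 and 0.32 in KO. Eif5a2, a paralog of the factor that frees ribosomes stalled on prolines (chromosome 3, 28781276 to 28798846), had 5.77, 4.77 and 5.71 FPKM in WT and 3.00, 2.77 and 2.53 in KO, a 1.96-fold fall (log2 fold change -0.85, SE 0.10, adjusted p = 0.000559). Eef2k, the calcium-dependent kinase that switches eEF2 off, had 13.7, 15.3 and 13.8 FPKM in WT and 11.3, 10.5 and 11.4 in KO (log2 fold change -0.35, SE 0.06, adjusted p = 0.00344). Both Eif5a2 and Eef2k have E-boxes in their promoters, as shown above. Eef1e1, which sits in the tRNA synthetase complex, fell from 27.9 ± 2.05 to 21.7 ± 1.67 FPKM (adjusted p = 0.00899), a call lost under common-sum scaling (adjusted p = 0.0554).

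The Eif2c rows match by name only, since Eif2c1, Eif2c2 and Eif2c4 are older symbols of the Argonaute genes Ago1, Ago2 and Ago4, which act in silencing by small RNAs. Eif2c1 had 5.27, 5.48 and 5.59 FPKM in WT and 7.18, 7.44 and 7.16 in KO (log2 fold change 0.38, SE 0.05, adjusted p = 0.000853). Eif2c2, the more abundant of these rows, was at 26.3 ± 0.70 and 26.2 ± 2.42 FPKM (adjusted p = 0.880). Eif2c4 was at or below 0.0346 FPKM, and Eif2c5, annotated as a long noncoding RNA, was listed at 0 throughout. Without these names 45 of 48 rows were tested and 30 were called, 11 higher and 19 lower.

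Of the 12 factor rows that rose, 6 lie on chromosome 15. Of the 7 tested factor rows on chromosome 15, 6 were higher in KO (Eif3d, Eif3e, Eif3h, Eif3l, Eif4b and Eef1d) and 0 were lower, while Eif2c2 was not called. The other 40 tested rows lie on 17 chromosomes, and 6 of them were higher and 19 lower, with a median log2 fold change of -0.12 against 0.35 on chromosome 15. Of the 392 other tested rows of chromosome 15, 44.4% were called higher and 29.3% lower, and their 25th to 75th percentile ran from -0.29 to 0.62. Their median log2 fold change was 0.12, the second highest of 20 chromosomes. That median was 0.24 under quantile normalization and 0.23 under common-sum scaling, and the chromosome 15 factor median moved from 0.35 to 0.57 and 0.47, with the same count of 6 called higher in both. Chromosome 10, which holds Eif4ebp2, had the highest median (0.37), and chromosome 6, which holds the row of Eif4e3, the lowest (-0.34). The called chromosome 15 factors exceeded the median of the other rows on their chromosome by 0.15 to 0.39. Across the 47 factor rows, Pearson's r between a row's log2 fold change and the median of the other rows on its chromosome was 0.42, and Spearman's rho was 0.48. These points share libraries and, within a chromosome, 1 median, so the values are a description. The split by chromosome was chosen after the values had been seen, and no cause was tested. Atf4, another gene of chromosome 15, was lower in KO and is described next.

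**Figure D4:**
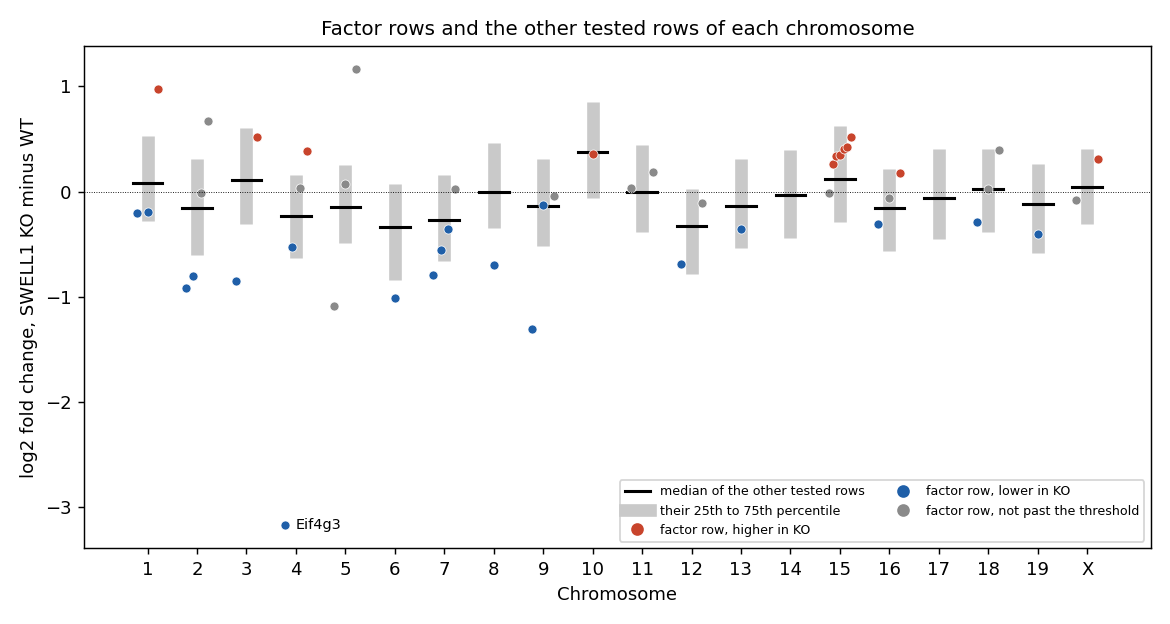
Log2 fold change of the tested factor rows (points, coloured by call) on each chromosome, over the median (black line) and the 25th to 75th percentile (grey bar) of the other tested rows there. On chromosome 15 the median of the other rows is 0.12, and 6 of 7 factor rows are higher in SWELL1 KO.

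The kinases that phosphorylate eIF2, and genes that act with them or answer to them, are no factors by name and were read as a list. Of 8 tested genes of this arm 6 fell and 1 rose, with a median log2 fold change of -0.64. Over all tested rows 36.7% were lower and 28.5% higher with a median of -0.07, and the pathway counts that follow, most of which rest on few genes, are to be read against these shares. Ppp1r15a, the inducible subunit that brings a phosphatase to eIF2 alpha, fell most, from 37.8, 44.6 and 47.0 FPKM to 12.3, 11.2 and 12.0 (log2 fold change -1.81, SE 0.09, adjusted p = 2.31e-05). Atf4, the transcription factor whose translation rises when eIF2 is phosphorylated, fell from 307, 329 and 322 FPKM to 127, 128 and 139 (log2 fold change -1.28, SE 0.05, adjusted p = 1e-05). Eif2ak3 (PERK) and Eif2ak4 (GCN2), kinases of eIF2, had log2 fold changes of -0.88 and -0.64, with adjusted p of 0.000215 and 0.00856. Impact, an inhibitor of GCN2, was the gene that rose, from 13.0 ± 0.22 to 16.4 ± 0.55 FPKM (adjusted p = 0.00103). Gcn1l1, the activator of GCN2, and the constitutive phosphatase subunit Ppp1r15b fell with log2 fold changes of -0.52 and -0.65, and Eif2ak1 was not called (adjusted p = 0.147).

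Of 11 genes for poly(A)-binding proteins and regulators of eIF4, 5 fell and 2 rose; under quantile normalization 5 rose. The 2 kinases that phosphorylate eIF4E went in opposite directions. Mknk1 had 11.9, 12.5 and 14.0 FPKM in WT and 7.01, 7.77 and 7.08 in KO (log2 fold change -0.77, SE 0.08, adjusted p = 0.000303), and Mknk2 had 22.7, 20.9 and 20.3 in WT and 39.2, 36.5 and 32.6 in KO (log2 fold change 0.75, SE 0.08, adjusted p = 0.000424), the largest rise of the list. Paip2b, an inhibitor of poly(A)-binding protein, showed the largest fall (log2 fold change -0.97, adjusted p = 0.000638). Larp1, the repressor of TOP messenger RNAs, fell with a log2 fold change of -0.51 (adjusted p = 0.00304), and Pabpc1 was at 772 ± 58.5 and 820 ± 53.4 FPKM (adjusted p = 0.323).

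Of 8 genes for the enzymes that make the hypusine of eIF5A or the diphthamide of eEF2, 1 rose and 2 fell. Dohh, the last enzyme of hypusine synthesis, rose from 17.5 ± 2.10 to 26.9 ± 2.70 FPKM (adjusted p = 0.00411), and Dph3, of the diphthamide pathway, had 39.6, 24.5 and 30.8 FPKM in WT and 6.28, 7.20 and 19.4 in KO (log2 fold change -1.64, SE 0.44, adjusted p = 0.0185). KO replicate 3 lay nearest to WT, and the call of Dph3 was lost without WT replicate 1 (adjusted p = 0.0634), WT replicate 3 (adjusted p = 0.0538), KO replicate 1 (adjusted p = 0.0557) or KO replicate 2 (adjusted p = 0.0625). Of 5 tested genes of termination, recycling and rescue, 3 fell and 0 rose, and Abce1, which splits ribosomes after termination, had the largest fall, from 67.1 ± 3.77 to 54.7 ± 1.05 FPKM (adjusted p = 0.00306). Under quantile normalization none of the 3 was called, and Abce1 had an adjusted p of 0.162. Of 9 mitochondrial translation factors 3 fell and 1 rose. Tufm, the mitochondrial counterpart of eEF1A, fell from 59.0 ± 0.34 to 36.4 ± 1.25 FPKM (log2 fold change -0.69, adjusted p = 3.14e-05), and Mtrf1l, a mitochondrial release factor, rose from 1.30 ± 0.64 to 7.33 ± 0.78 FPKM (log2 fold change 2.18, adjusted p = 0.000602). The mitochondrial rows of Mtif2, Tsfm and Gfm2 had 1 or 2 libraries listed at 0 and were not called.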

How the data were processed

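RNA sequencing values of 6 libraries, 3 per group, were taken from 1 table of 31097 rows. Per the submitters' processing notes, TopHat and Cufflinks 2.02 were used with GRCm38. The deposited values were taken as FPKM by inference, since no header names their unit, while settings and annotation release are not stated. No value column was left unmapped. Whether counting used strand is not stated, so overlapping genes were not told apart, and 659 rows hold more than 1 gene name. Depth was estimated from the worth of 1 fragment in the low values of 958 genes with a transcript of at least 2500 bases; values under 1 FPKM rest on few fragments.

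Values were used as deposited, filtered at a mean of 0.5 FPKM, put on the log2(FPKM + 0.5) scale and fitted by limma 3.58.1 under R 4.3.3 (mean-variance trend, two-sided, Benjamini-Hochberg over 10515 rows, no block). The fit was also run on simulated data with independent noise and far fewer changed rows than were called here. That run therefore does not check the calls under the conditions of these data. Each mean and SD is over the FPKM of 3 libraries. The labels call the libraries biological replicates but name no separate cultures, so the p-values reflect only the spread of these samples, which may be technical. Within groups, 25.3% to 31.8% of 4440 rows differed by over 10%, so no library looked like a repeat of another. Alternatives were other pseudocounts, filters, scalings, robust moderation, a replicate block, leaving out each library, and narrower membership. The members and gene lists were chosen with earlier results of these data known. Genes named with values were a fixed list of core factors, the 8 largest called increases and the 8 largest called decreases without overlap or zeros, rows with a library at 0, the highest row of each complex, and the largest changes of each pathway list. Other genes given with values were added after these had been seen. A planned display of protein sequences was not made. Tables and plots were made in Python 3.11.15 (pandas 2.3.3, numpy 2.4.6, matplotlib 3.10.9).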

Additional observations from a re-analysis of the deposited data

How the results depend on the processing

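Over the 15 alternative fits and both narrower memberships, quantile normalization alone moved the count of factor rows that were higher by over 1.5 times (20 against 12, with the 12 among the 20). No fit moved the count that were lower, or the counts over all tested rows, that far. Leaving out each library in turn gave 10 to 12 factor rows higher and 16 to 19 lower. No label ties libraries of the same number, and the correlations of their deviations from the group means were 0.00, 0.01 and -0.09. Such values cannot decide whether the samples are paired. A replicate block gave 11 higher and 17 lower, 28 in all, with Eif4a2, Eef1b2 and Eif2d losing their calls. Signs reversed in small differences. Under quantile normalization these were Eef1b2 (0.030), Eif2b2 (0.055), Eif2c2 (0.12), Eif2s3x (0.15), Eif3g (0.16), Eif3m (0.20) and Eif4g1 (0.16), with Eif2s3x, Eif3g, Eif3m and Eif4g1 then called higher. Common-sum scaling reversed Eif2b2 (0.013), Eif2c2 (0.11), Eif2s3x (0.038), Eif3g (0.083), Eif3m (0.10) and Eif4g1 (0.059), and median-ratio scaling Eif2c2 (0.052), Eif3g (0.029), Eif3m (0.049) and Eif4g1 (0.0049). Leaving out 1 library at a time gave log2 fold changes of -0.020 to 0.070 for Eif2b3, -0.0870 to 0.028 for Eif2c2, -0.046 to 0.062 for Eif3j2 and -0.039 to 0.0037 for Eif3m. The same fits were read for the named pathway genes and the neighbours of Eif4g3, a check added after seeing the data, and no sign changed there. The cause was not tested. Limits are the inferred unit, 3 libraries a group, the missing counts, zeros that may be failed estimates, and rows that hold more than 1 gene.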

Other observations

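Rows whose names resemble the factors but fall outside the rule also held values. A row spelled EIF1A in capitals had 87.2, 112 and 86.0 FPKM in WT and 83.1, 86.4 and 90.4 in KO, below Eif1a in each library. Its groups overlapped, unlike those of Eif1a. The pseudogene rows Eif3s6-ps2 (9.10 to 14.2 FPKM in WT, 13.6 to 14.7 in KO) and Eif4a-ps4 (27.5 to 31.1 and 25.5 to 26.7) also had values above 0 in all 6 libraries. Eif3s6 is the older name of Eif3e.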
